A study of Homo sapiens with 9 samples.

Results

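Nascent transcription of a PCIF1 knockout clone of MEL624 cells, called clone 1 here, was compared with that of control cells gene by gene. MEL624 is an established human melanoma cell line. The measurement was PRO-seq (precision run-on sequencing), which marks the RNA at polymerases already engaged on DNA by letting them run on with labelled nucleotides in permeabilized nuclei. Control cells had the genotype wild type with a random sgRNA, that is, a guide RNA not aimed at PCIF1. Clone 1 had the genotype PCIF1 KO and is a single clone, so features of the cell that founded it cannot be told apart from the loss of PCIF1. A second PCIF1 KO clone, clone 2, is given beside it. Each of the 3 groups had 3 biological replicates, 9 libraries in all, and the values used here are 1 mean per group. No value below therefore carries a standard deviation, no test across replicates was possible, and no gene is said to have changed.

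Genes were taken into the comparison where the mean of the control and clone 1 levels was at least 10 normalized counts. This held for 17160 of the 58336 genes listed (29.4%), of which 12514 were protein-coding, 3214 were lncRNAs, 1317 had other annotated types and 115 had no annotation. A level is the deposited value, which is given per kb of gene length, multiplied by that length in kb. The log2 ratio is log2((clone 1 + 1) / (control + 1)), and the added count pulls the ratio of low genes towards 0. Folds are given without the added count, and only where both groups were above the near-zero range. By this filter a gene that is low in 1 group enters only if it is high enough in the other, so genes near 0 in a group could enter only with a large ratio.

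PCIF1 adds a methyl group to the N6 position of an adenosine next to the cap of an mRNA, provided that adenosine already carries a 2'-O-methyl group. The product, m6Am, sits at the first transcribed base, so the mark can be placed only on transcripts that start with A. PRO-seq reads the polymerase during transcription and does not read the mark or the stability of the finished mRNA.

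The bases around the annotated start are shown for the 4 highest and 3 of the lowest protein-coding genes of clone 1 with a mean of at least 50 counts, because the start base decides whether a transcript could carry the mark. They come from the hg38 genome at the start of the canonical transcript in GENCODE release 44, and the starts used in these cells were not measured. Each is 50 bases long on the strand of its gene, and the capital marks the annotated first transcribed base. The windows of the genes that were higher in clone 1 are chr10:129467201-129467250 (plus strand) for MGMT, chr7:15686674-15686723 (minus strand) for MEOX2, chr19:12064691-12064740 (plus strand) for ZNF844 and chr14:85530104-85530153 (plus strand) for FLRT2. Those of the genes that were lower are chr19:50476467-50476516 (plus strand) for EMC10, chr4:165873197-165873246 (plus strand) for TLL1 and chrX:9034118-9034167 (minus strand) for FAM9B.
MGMT: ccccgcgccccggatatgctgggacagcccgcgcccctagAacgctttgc
MEOX2: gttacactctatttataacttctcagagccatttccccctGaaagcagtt
ZNF844: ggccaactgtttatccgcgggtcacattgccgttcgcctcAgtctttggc
FLRT2: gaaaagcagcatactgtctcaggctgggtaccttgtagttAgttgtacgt
EMC10: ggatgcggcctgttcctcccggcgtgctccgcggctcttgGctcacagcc
TLL1: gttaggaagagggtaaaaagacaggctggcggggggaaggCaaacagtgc
FAM9B: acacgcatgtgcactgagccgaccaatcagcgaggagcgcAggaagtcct
Starts with A and starts with another base occur on both sides: MGMT, ZNF844, FLRT2 and FAM9B start with A, MEOX2 and EMC10 with G, and TLL1 with C. CADM1, also among the 4 lowest, was left out by name, and its annotated start is A.

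The cells were checked against markers of their type. SOX10, a neural crest transcription factor, and TYR, the pigment enzyme tyrosinase, were listed at 0 in control and in clone 1, and the melanocyte antigen gene MLANA was at 0.3 and 0.9 counts. MITF, the melanocyte master regulator, had 168.5 counts in control and 142.0 in clone 1. Of 10 melanocyte and melanoma markers 3 reached 10 counts in each group, so the labelled cell type rests on few of its markers here. Among markers of other types, the keratin genes KRT8 (384.6 and 370.5 counts) and KRT18 (842.1 and 713.3 counts) were transcribed in both groups. None of 5 leukocyte, 4 endothelial and 3 erythroid markers reached 10 counts in control or clone 1, while 3 of 7 fibroblast markers did in each, with sums of 144.8 and 134.7 counts. PCIF1 itself had 239.5 counts in control cells, 269.6 in clone 1 and 239.3 in clone 2. A small edit of its coding sequence need not alter its transcription, so this does not check the label.

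Most genes had similar levels in clone 1 and in control. The median log2 ratio was -0.01, 8360 genes were above control and 8786 below it, and 88.2% lay within 1.5-fold of control. The authors had scaled the values, and whether the Drosophila spike-in entered that scaling is not given in the sources used here. A difference common to all genes could therefore have been removed before deposit.

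At least 2-fold higher in clone 1 were 354 genes (2.06%), and at least 2-fold lower were 243 (1.42%). Many of them had low counts. With a mean of at least 50 counts, 98 of 11875 genes were at least 2-fold higher (0.825%) and 58 were at least 2-fold lower (0.488%). The central 95% of log2 ratios ran from -1.16 to 1.44 over 5285 genes of 10 to 50 counts, and from -0.64 to 0.76 over 6648 genes of 50 to 200. It ran from -0.47 to 0.61 over 4753 genes of 200 to 1000 counts and from -0.47 to 0.54 over 474 genes above that. The ratios were thus narrower where the counts were higher. The single gene above 1000 counts that was at least 2-fold off, RN7SL2, an RNA component of the signal recognition particle, was noticed after the data were seen. It had 700.5 counts in control cells, 1456.7 in clone 1 and 1628.0 in clone 2, and near-identical copies of it can share its reads.

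**Figure D1:**
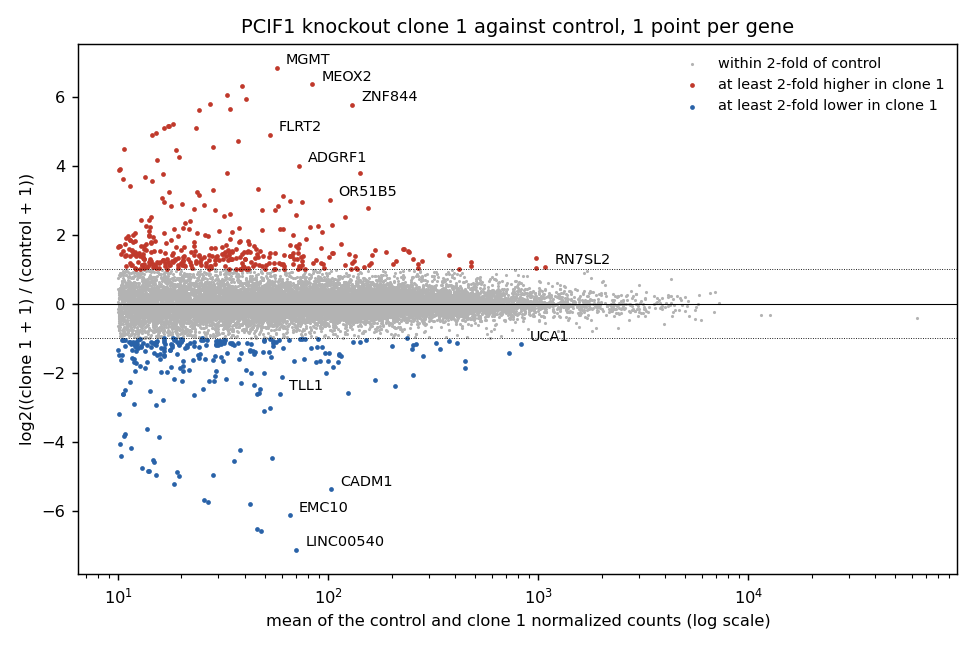
Log2 ratio of clone 1 to control for each of the 17160 compared genes (vertical axis) against the mean of the 2 levels in normalized counts (horizontal log axis). Dotted lines mark 2-fold, and the points outside them, 354 above and 243 below, lie mostly at low counts.

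With a mean of at least 50 counts, the protein-coding genes that were highest in clone 1 were near 0 in control. MGMT, which removes alkyl groups from guanine in DNA and is known for protecting tumour cells from alkylating drugs, was listed at 0 in control cells and reached 113.5 counts in clone 1 and 133.0 in clone 2. MEOX2, a homeobox gene of mesoderm development, had 1.0, 166.8 and 164.8 counts in control cells, clone 1 and clone 2. ZNF844, a zinc finger gene, had 3.7, 256.4 and 363.3 counts. FLRT2, a membrane protein of axon guidance and adhesion, had 2.4, 102.6 and 96.0 counts. For these 4 genes both knockout clones were far above control. The clones share the control mean, so a low control mean alone would place a gene high in both. In these bulk values, more cells transcribing a gene and more transcription per cell cannot be told apart.

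A further group had counts in control and 4.10-fold to 18.1-fold more in clone 1. ADGRF1, an adhesion G protein-coupled receptor, had 7.6 counts in control and 136.9 in clone 1, the 18.1-fold difference, against 77.0 in clone 2. ZNF701, another zinc finger gene, had 19.6 and 121.0 counts (6.18-fold) and 152.5 in clone 2. TMEM154, a transmembrane protein gene, had 34.5 and 173.5 counts (5.02-fold) and 177.7 in clone 2. Enzymes and adhesion proteins followed them. GDA, guanine deaminase of purine breakdown, had 30.4 counts in control and 149.1 in clone 1 (4.91-fold), and 145.7 in clone 2. ST6GALNAC5, a sialyltransferase of gangliosides, had 21.5 and 100.1 counts (4.66-fold), and 102.1 in clone 2. NEDD9, a scaffold protein of focal adhesions known for its part in melanoma invasion, had 34.9 and 151.6 counts (4.34-fold), and 119.6 in clone 2. PLAC8 had 26.7, 109.4 and 114.2 counts in control cells, clone 1 and clone 2. In the genes just named the clone 2 level was nearer to clone 1 than to control. This did not hold for HBG2, OR51B5 and OR51I1, which lie in the same range of folds. They had 38.6, 272.1 and 39.1 counts, 21.6, 181.4 and 28.6 counts, and 14.0, 97.3 and 23.5 counts in control cells, clone 1 and clone 2.

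With a mean of at least 50 counts, the lowest protein-coding genes of clone 1 were EMC10 and CADM1. EMC10, a subunit of the complex that inserts membrane proteins into the endoplasmic reticulum, had 130.4 counts in control cells, 0.9 in clone 1 and 78.5 in clone 2. CADM1, an immunoglobulin-type adhesion molecule, had 202.3, 3.9 and 23.5 counts. EMC10 was thus near 0 in clone 1 alone, whereas CADM1 was low in both clones. The nearest compared genes on the chromosome differed less. SPIB and JOSD2, 45086 and 15127 bases from EMC10, had log2 ratios of -0.23 and -0.04. BUD13 and an entry without a symbol, 1243213 and 715095 bases from CADM1, had -0.26 and -0.53. Genes with too few counts were not compared, so the close surroundings of CADM1 are not described.

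The other genes at this end encode a protease, a transporter, adhesion and signalling proteins and enzymes. TLL1, a tolloid-like metalloproteinase that processes matrix proteins, had 101.9 counts in control and 15.8 in clone 1 (6.45-fold lower), and 13.2 in clone 2. ABCC2, an exporter of conjugated organic anions and drugs, had 348.9 and 65.9 counts (5.29-fold lower), and 62.2 in clone 2. PCDH7, a protocadherin outside the gene clusters, had 274.0 and 58.9 counts (4.65-fold lower), and 45.2 in clone 2. These 3 were about as low in clone 2 as in clone 1. FAM9B, a gene known from the testis, had 213.1 counts in control cells, 34.7 in clone 1 and 107.8 in clone 2. SPHK1, the kinase that makes sphingosine-1-phosphate, had 171.2, 51.9 and 86.6 counts. RARB, a retinoic acid receptor, had 138.6, 43.1 and 76.6 counts. For these 3 genes clone 2 lay between control and clone 1. CHRM3, the M3 muscarinic receptor, had 104.8 counts in control and 32.1 in clone 1 (3.26-fold lower), and FBXL7, an F-box protein of ubiquitin ligases, had 115.5 and 37.3 (3.09-fold lower). Their clone 2 levels were 41.1 and 31.2 counts.

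**Figure D2:**
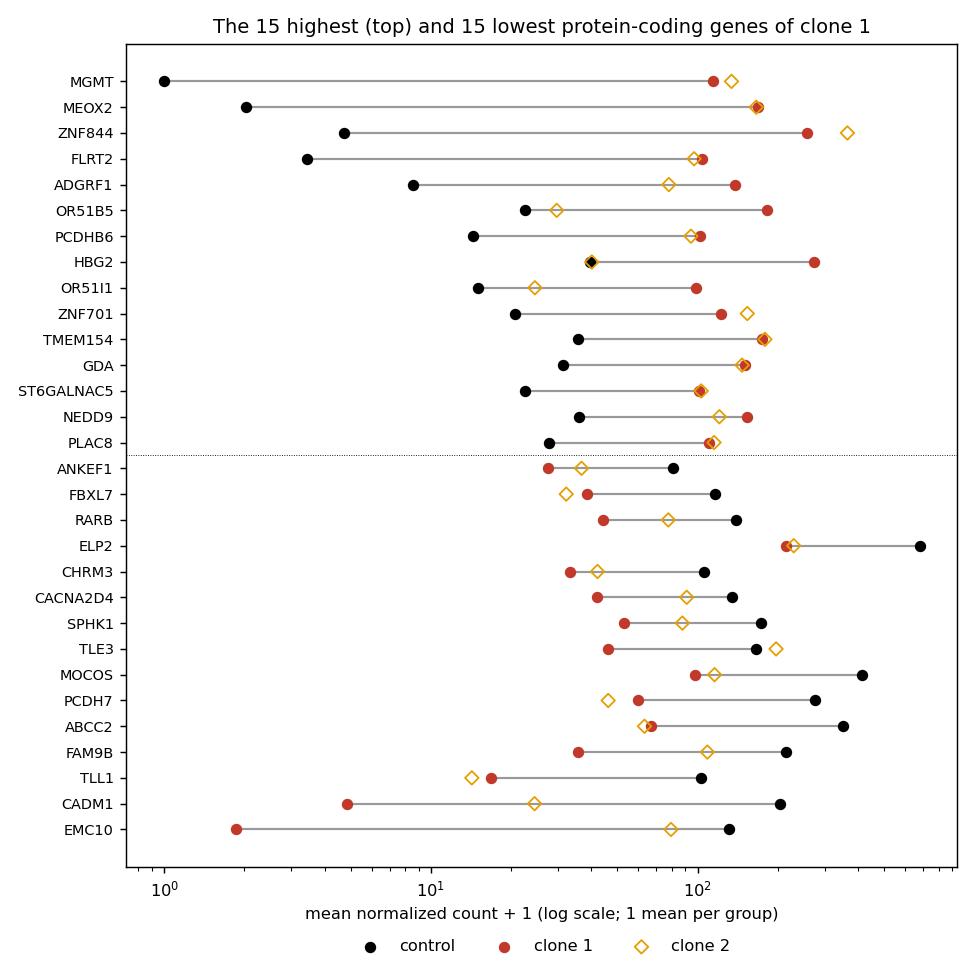
Mean normalized counts plus 1 (horizontal log axis) of the 15 highest and 15 lowest protein-coding genes of clone 1 with a mean of at least 50 counts, with filled points for control (black) and clone 1 (red) and open diamonds for clone 2. A bar joins control to clone 1; clone 2 lies near control for HBG2 (39.1 against 38.6 counts) and OR51B5 (28.6 against 21.6), and above it for TLE3 (195.8 against 164.6).

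Other transcripts with a mean of at least 50 counts showed differences of like size. LINC02577 had 18.1 counts in control cells, 265.5 in clone 1 (14.64-fold higher) and 161.4 in clone 2, and LINC00665 had 34.7, 204.7 and 177.7. LINC00540 had 140.6 counts in control and was listed at 0 in both clones. MIR34AHG, the host transcript of a p53-responsive microRNA, had 141.9, 51.7 and 69.1 counts. TRBV30, a T-cell receptor variable segment, had 103.7, 3.8 and 0.3 counts, while no leukocyte marker reached 10 counts.

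The position of the 30 extreme protein-coding genes was examined because neighbours can be read together. Of the 59 compared genes directly beside them, 13 were at least 2-fold off and 37 lay within 1.5-fold of control. Apart from MARCHF11-AS1 beside FBXL7, the 13 belonged to the runs counted below. They lay at MEOX2, FLRT2, PCDHB6, the OR51 entries, and ELP2 with MOCOS, so they do not describe the extreme genes in general. Over all compared genes the shares past 2-fold were 2.06% (higher) and 1.42% (lower), and 88.2% lay within 1.5-fold. ABCC2 lay between COX15 and DNMBP, which had log2 ratios of -0.01 and -0.02, and GDA lay between C9orf85 and ZFAND5, which had 0.15 and -0.02. At these 2 places the nearest compared genes were near control. MEOX2 differed from them: its neighbour AGMO, an ether lipid enzyme, had 10.8 counts in control cells, 49.8 in clone 1 and 72.7 in clone 2. ZNF788P, beside ZNF844, had 258.9, 514.4 and 465.4 counts.

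Runs of at least 3 neighbouring compared genes that were all at least 2-fold off in the same direction numbered 11, on 6 chromosomes, with 51 genes. The longest, with 9 genes, lay on chromosome 11 from 5291761 to 5505652 and consisted of olfactory receptor (OR51) entries. OR51B5 had 21.6 counts in control and 181.4 in clone 1 (8.41-fold higher), and the nearby fetal gamma-globin gene HBG2, whose annotated span reaches 5505605, had 38.6 and 272.1 (7.05-fold higher). In clone 2 these were at 28.6 and 39.1 counts. These entries overlap the annotated span of HBG2 on the same strand, so they may be counts of the same transcription. The erythroid marker HBA1 was listed at 0, and HBB had 0.7 counts in control and 0.9 in clone 1.

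The clustered protocadherins of chromosome 5, adhesion proteins that give neurons their surface identity, held 4 of the runs. Of 53 listed, 33 were compared, all of these were above control and 17 were at least 2-fold higher, with a median log2 ratio of 1.02. Over all compared genes 48.7% were above control and 2.06% at least 2-fold higher, and the median was -0.01. The other 20 had too few counts, and the counted members include some that passed the filter through clone 1 alone. With at least 10 counts required in both groups the median was 0.92. PCDHB6 had 13.4 counts in control cells, 101.4 in clone 1 and 93.4 in clone 2. PCDHA9 had 36.2, 95.9 and 79.0, PCDHB7 had 17.3, 52.3 and 46.9, and PCDHGB1 had 4.1, 36.4 and 58.1. The median of the family was 0.56 in clone 2, and PCDHB16 (47.9, 99.4 and 56.7 counts) and PCDHB10 (5.8, 20.7 and 4.7 counts) were higher in clone 1 with clone 2 near control. Alpha and gamma members share exons, so their values are uncertain as levels of single genes.

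**Figure D3:**
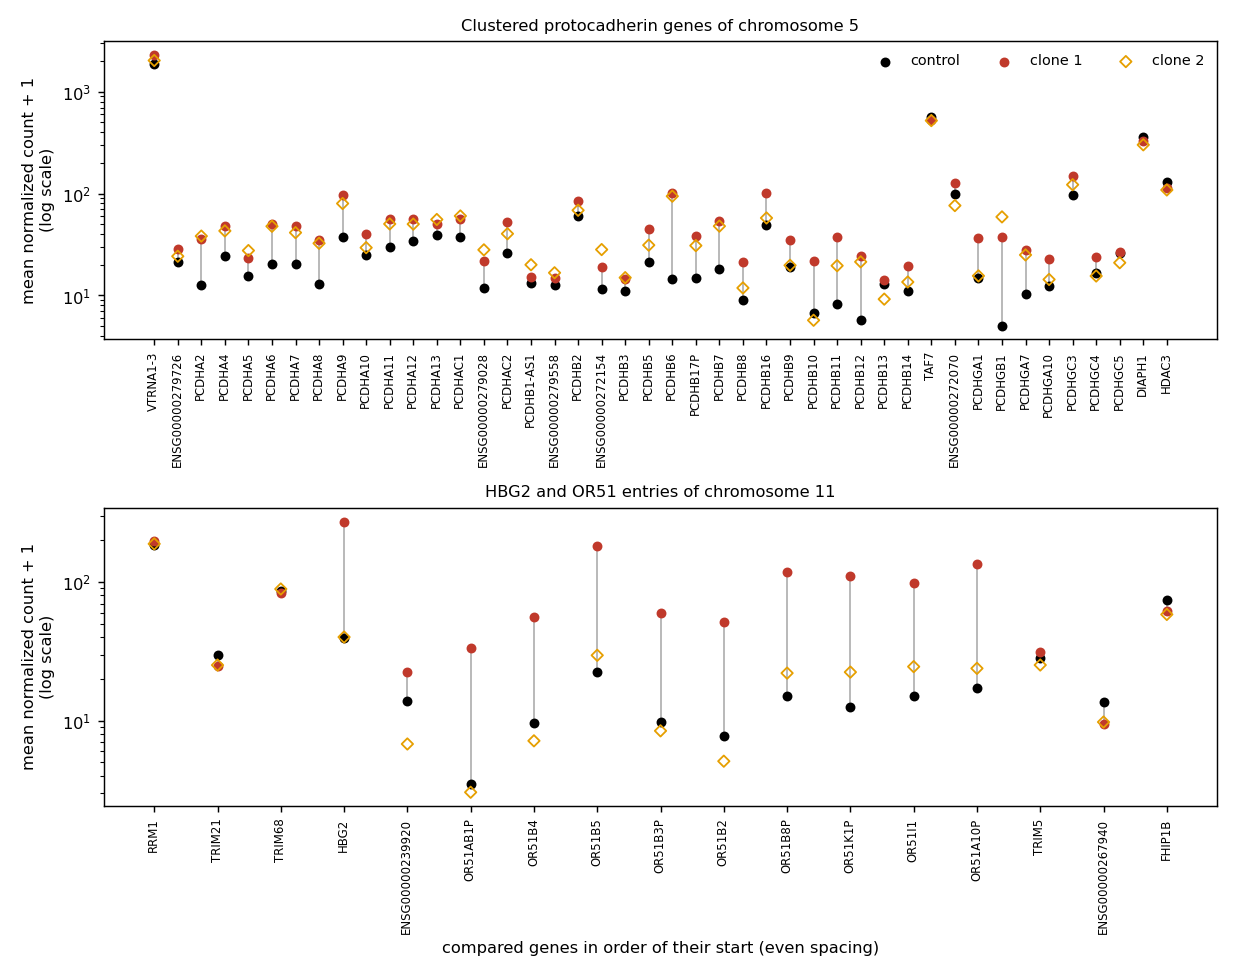
Mean normalized counts plus 1 (vertical log axis) of neighbouring compared genes in order of their start, evenly spaced, for control (black), clone 1 (red) and clone 2 (open diamonds), in the protocadherin clusters of chromosome 5 (top) and at HBG2 and the OR51 entries of chromosome 11 (bottom). Clone 1 is above control at all 33 compared protocadherins, and clone 2 lies nearer to control than to clone 1 at HBG2 and the 9 OR51 entries of the run.

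Runs of lower genes lay on chromosomes 18 and 20. Of 316 compared genes of chromosome 18, 25 were at least 2-fold lower (7.91%) and 9 at least 2-fold higher (2.85%), with a median of -0.10. Over all compared genes 1.42% were at least 2-fold lower and 2.06% higher. The run from 36108531 to 36274599 held 6 genes, among them ELP2, a subunit of the tRNA-modifying Elongator complex, at 678.9 counts in control and 213.2 in clone 1, and MOCOS, the sulfurase of the molybdenum cofactor, at 411.0 and 96.5. A run of 7 genes from 14179395 to 14974215 held POTEC, with 26.0 counts in control and listed at 0 in both clones, and ANKRD30B, with 64.5, 16.3 and 8.1. DTNA, a dystrobrevin gene elsewhere on this chromosome, had 64.3 counts in control cells, 12.3 in clone 1 and 51.0 in clone 2. Chromosome 20 had 15 of 441 genes at least 2-fold lower (3.40%) and 2 higher (0.454%), with a run of 3 genes that held SIRPA, the receptor for CD47, at 45.2, 8.8 and 7.2 counts. Chromosome 5 had the highest share of higher genes, 38 of 828 (4.59%), which includes the protocadherins. The median over chromosomes other than the mitochondrial one ran from -0.10 (chromosomes 16 and 18) to 0.07 (chromosome 4).

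Among genes with a mean of at least 1000 counts differences were smaller. NOP58, a core protein of box C/D snoRNPs, had 1165.9 counts in control cells, 2145.7 in clone 1 and 2075.6 in clone 2. The lowest were CSNK2A1, the catalytic subunit of casein kinase II, with 1646.2, 952.4 and 986.4 counts, EMILIN2 with 1574.9, 912.6 and 944.3, and MYL12A, a myosin light chain, with 2276.2, 1326.3 and 951.3. RPS26 had 1585.1, 2493.3 and 2306.2 counts, while none of 83 cytosolic ribosomal protein genes was at least 2-fold off and their median was -0.02. The 13 protein-coding genes of the mitochondrial genome had log2 ratios from -0.71 to 0.15 in clone 1, with a median of -0.17, and a median of 0.27 in clone 2.

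Some genes were near 0 in 1 group and had clear counts in the other, and they were picked by that pattern. With at most 1 count in control and at least 20 in clone 1 there were 19 genes, 13 of them protein-coding. Beyond MGMT they included ZNF677, PDE3B, an insulin-regulated phosphodiesterase, ZNF141 and ZNF454, each listed at 0 in control cells, and they reached 78.1, 66.0, 48.3 and 34.8 counts in clone 1 and 92.7, 87.0, 40.4 and 15.5 in clone 2. EPHA3, an ephrin receptor, was listed at 0 in control and had 30.2 counts in clone 1 and 0.3 in clone 2, the single case of the 19 in which clone 2 had at most 1 count. The vitamin D hydroxylase gene CYP2R1, which adjoins PDE3B in the genome and was noticed only afterwards, had 0.4, 67.6 and 58.7 counts.

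The reverse, at most 1 count in clone 1 and at least 20 in control, held for 22 genes, 15 of them protein-coding. The neural adhesion gene NCAM1 had 84.3 counts in control cells, 0.5 in clone 1 and 1.4 in clone 2. The following genes of this set were noticed after their values were seen. COBL, an actin nucleator, had 95.4 counts in control and FAM111B, a protease-like gene, had 51.1, and both were listed at 0 in both clones. AUTS2, a neurodevelopmental gene, had 38.7, 0.2 and 0.0 counts, XYLT1, which starts glycosaminoglycan chains, 37.9, 0.3 and 0.7, and GLUL, glutamine synthetase, 20.1, 0.3 and 0.0. In 5 of the 22 clone 2 had at least 20 counts. Beside EMC10 these were WBP2NL (30.2, 0.0 and 56.7 counts), MS4A13 (29.2, 0.3 and 39.6), ELMO1, an activator of Rac (29.1, 0.3 and 37.6), and GSPT2, a translation termination factor gene (20.9, 0.6 and 26.6).

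Genes off in clone 1 with clone 2 near control were sought by a rule set after the values were seen: a mean of at least 50 counts, at least 2-fold off in clone 1 and within 1.5-fold of control in clone 2. There were 17, of which 8 were higher and 9 lower. TLE3, a Groucho-type corepressor, had 164.6 counts in control cells, 45 in clone 1 and 195.8 in clone 2. ODC1, ornithine decarboxylase of polyamine synthesis, had 170.0, 59.2 and 126.2 counts, and the tumour suppressor kinase gene STK11 had 117.3, 47.9 and 98.9. COL6A3, a collagen VI chain, had 165.7, 58.5 and 145.7 counts. The noncoding RNA UCA1, known from bladder cancer, had 1143.3, 507.1 and 880.7, and VGF, a neuropeptide precursor, had 566.9, 256.9 and 467.5. CACNA2D4, GNAL and ZNF516-DT were the other lower ones. Apart from HBG2, 3 OR51 entries and PCDHB16, the higher ones were LPAR1, a lysophosphatidic acid receptor, with 74.8, 164.7 and 92.3 counts, PTPRB with 31.1, 69.5 and 44.6, and SLC44A3-AS1 with 35.6, 81.2 and 40.1. Whether the clones differ from each other here was not tested.

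The split by start base asks whether genes whose transcripts could carry the mark were transcribed at another level without PCIF1. The 7448 compared genes with an annotated start A had a median log2 ratio of 0.00 (quartiles -0.19 and 0.22), and the 9597 with C, G or T had -0.02 (quartiles -0.20 and 0.18). Among protein-coding genes the medians were 0.00 for 5877 with A and -0.02 for 6637 with another base. Genes with a start A had larger shares on both sides: 179 were at least 2-fold higher (2.40%) and 126 lower (1.69%), against 172 (1.79%) and 115 (1.2%) of the others. Put the other way, A was the start base of 51.0% of the higher genes, 52.3% of the lower and 43.4% of those within 2-fold. Among genes of 10 to 50 counts, where most of them lie, these shares were 47.2%, 52.5% and 41.1%. The 2 groups of genes share all libraries, so the shares are a description with no test.

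The regions before the starts differed in base composition between genes that were 2-fold off and the rest. In a window from 250 bases before the start to 50 from it, the ratio of observed to expected CpG had a median of 0.65 for the higher genes, 0.74 for the lower and 0.82 for those within 2-fold. The values for single genes ranged widely, from 1.06 at MGMT to 0.34 at FAM9B, 0.11 at ADGRF1 and 0.07 at ABCC2. Level moved with this: the median mean count was 27.9 for the higher genes, 24.5 for the lower and 113.6 for the rest. Within 10 to 50 counts the medians of the CpG ratio were 0.64, 0.74 and 0.55, so the order turned. The motif TATAAA, sought on the strand of the gene in the 50 bases before the start, was present at 3.13% of higher genes (11 of 351), 2.90% of lower (7 of 241) and 1.91% of all compared genes with a window. These are few genes, and the motif was not compared within 10 to 50 counts. A match is only a match of letters.

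Gene groups were examined through 78 lists and families. In 25 of them no compared member was at least 2-fold off. These included the machineries nearest to PCIF1 and to transcription: 38 genes of cap methylation and of m6A and m6Am writing and reading (median -0.02), 39 of polymerase II pausing and elongation (-0.03), 40 of polymerase II and Mediator (-0.03) and 28 of Integrator and 3' end processing (-0.10). In the first of these the extremes were NCBP1, the large cap-binding subunit, with 425.4 counts in control and 537.5 in clone 1, and METTL4 with 347.0 and 228.2. METTL4 spans 2537525 to 2571509 on chromosome 18 (minus strand), near EMILIN2 and MYL12A, which were picked above as low genes (log2 ratios -0.79 and -0.78). Whether its level goes with its position or its function was not tested. The silencing genes (35, median -0.05) ran from TRIM28, the corepressor of zinc finger proteins, at 845.4 and 619.2 counts to EZH2, the H3K27 methyltransferase, at 561.6 and 709.1. None of 38 cytosolic translation factors, 77 mitochondrial ribosomal proteins, 37 subunits of respiratory complex I, 37 proteasome subunits or 54 replication-dependent histones was 2-fold off. Over all compared genes only 2.06% were at least 2-fold higher and 1.42% lower. At 200 to 1000 counts the shares were 0.337% each way, so having no member past 2-fold need not set a list apart.

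**Figure D4:**
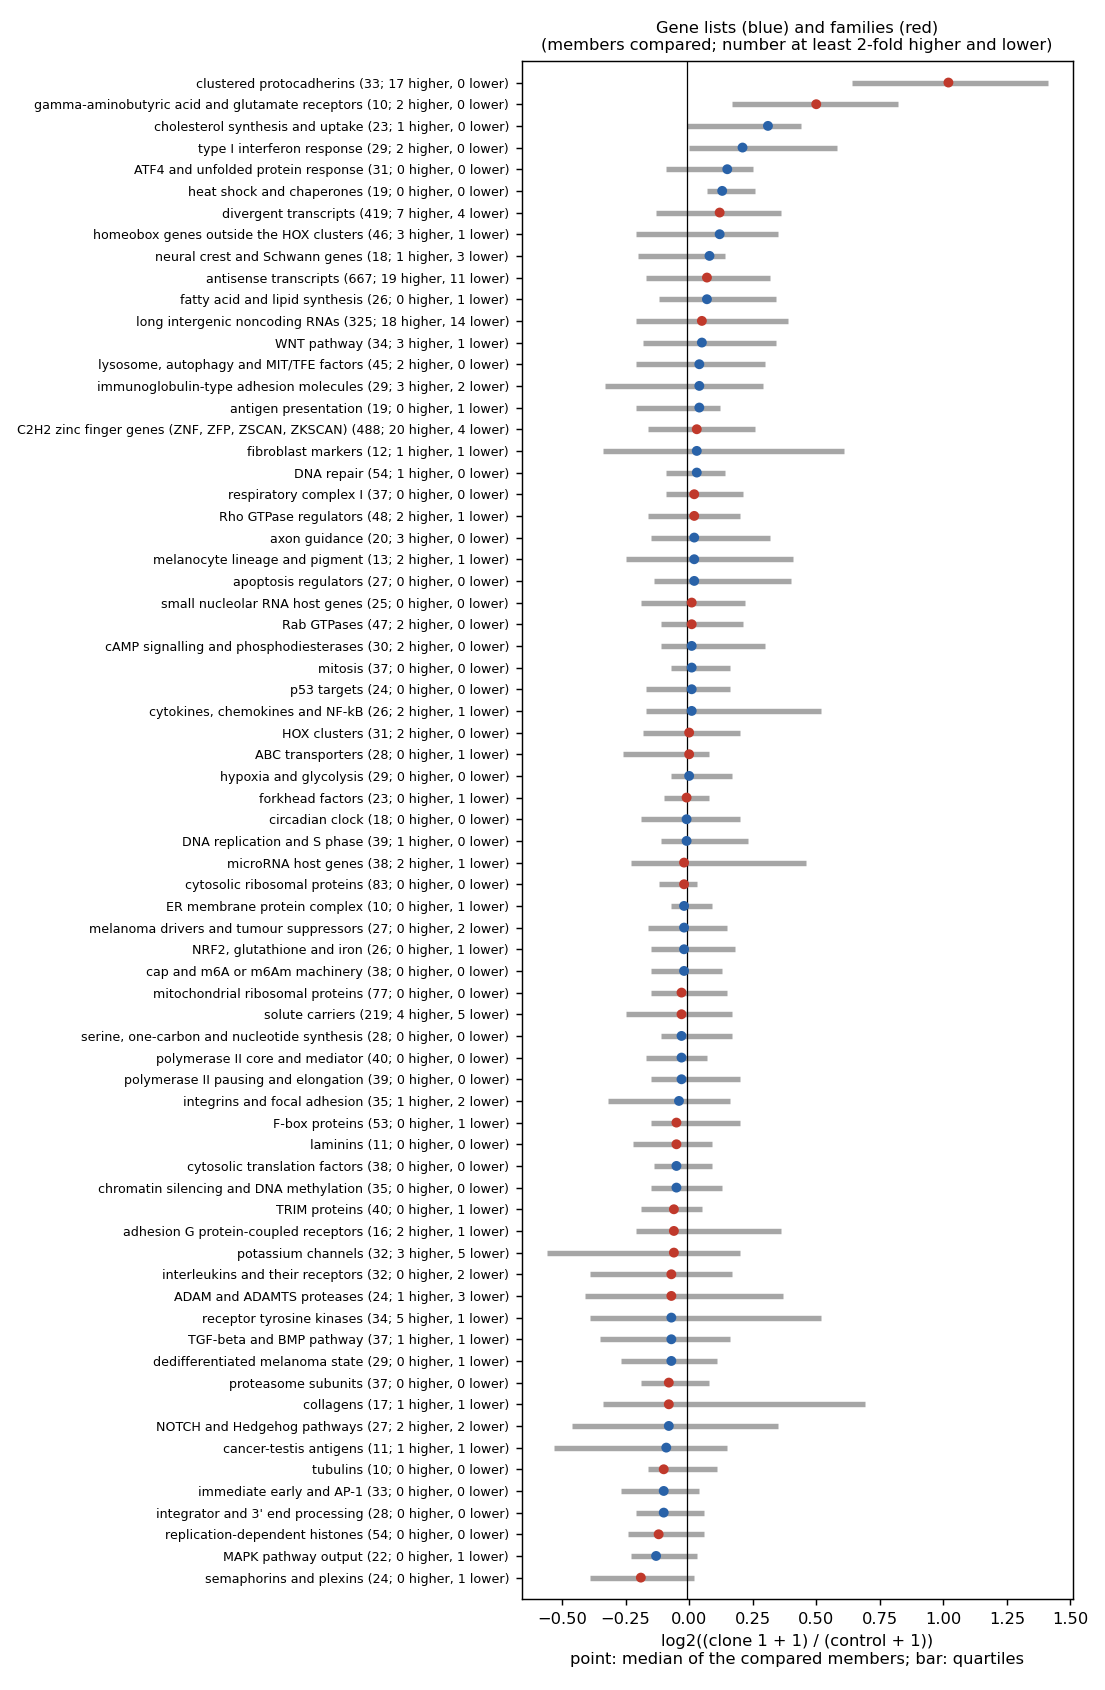
Median (point) and quartiles (bar) of the log2 ratio of clone 1 to control over the compared members of each list (blue) and family (red) with at least 10 compared members. The vertical line is the median of all compared genes, -0.01; the clustered protocadherins are at 1.02 and all other points between -0.19 and 0.50.

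The C2H2 zinc finger genes, many of which encode repressors of transposons, had a median close to that of all genes. Of 488 compared, 20 were at least 2-fold higher (4.10%) and 4 lower (0.82%), with a median of 0.03, beside 2.06% and 1.42% of all compared genes. The higher members include some that passed the filter through clone 1 alone. Beyond ZNF844, ZNF701 and the 3 genes listed at 0 in control, the higher members included ZNF486, with 126.8 counts in control cells, 359.6 in clone 1 and 362.3 in clone 2, and ZNF470, with 79.3, 187.0 and 150.0. ZNF469, with 69.5, 16.6 and 35.6 counts, and ZNF556, with 69, 2.0 and 135.2, were among the 4 lower ones. These last 4 genes were picked after their values were seen. Members of this family resemble each other, and reads can be split between copies.

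Metabolic and stress lists had medians on both sides of that of all genes, with few members past 2-fold. Over all compared genes 48.7% were above control, 2.06% were at least 2-fold higher and 1.42% lower. Below it were the lists of serine, one-carbon and nucleotide synthesis (28 genes, median -0.03) and of NRF2, glutathione and iron (26 genes, median -0.02), and hypoxia and glycolysis (29 genes) had 0.00. Of 23 genes of cholesterol synthesis and uptake 16 were above control and 1 was at least 2-fold higher, with a median of 0.31. It was CYP51A1, lanosterol demethylase, with 62.3 counts in control cells, 128.6 in clone 1 and 158.6 in clone 2. Its antisense transcript CYP51A1-AS1, with 20.5, 67.8 and 66.8 counts, overlaps it. Of 29 type I interferon response genes 22 were above control and 2 at least 2-fold higher, with a median of 0.21: IFI44L had 25.6, 60.1 and 54.6 counts and HERC5, the ISG15 ligase, had 5.1, 15.4 and 17.5. HERC5 passed the filter through clone 1 alone, so it could enter only with a higher level there. The 31 genes on the list for ATF4 and unfolded proteins (median 0.15) and the 19 of heat shock (median 0.13) had none past 2-fold. ALDH1L2, a mitochondrial folate enzyme of the first, had 194.0, 302.8 and 443.2 counts, and HSPE1, the mitochondrial co-chaperonin, had 215.7, 347.6 and 375.5. The 24 p53 targets had a median of 0.01 and none past 2-fold.

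Receptors and ligands lay past 2-fold in both directions. The counts of this and the following lists stand beside 2.06% higher and 1.42% lower over all compared genes. They include members below 10 counts in 1 group, which passed the filter through the other group alone. For members near 0 in a group the filter itself required a large ratio. Of 34 receptor tyrosine kinases 5 were at least 2-fold higher and 1 lower, with a median of -0.07. EPHA7 had 114.2 counts in control cells, 346.1 in clone 1 and 379.1 in clone 2, FGFR4 had 10.3, 35.5 and 33.6, and MERTK, a receptor for the uptake of dying cells, had 11.8, 27.8 and 40.7. In the WNT list (34 genes, 3 higher and 1 lower) the secreted antagonists SFRP1 (165.6, 366.0 and 347.4 counts) and DKK2 (14.8, 50.3 and 43.5) and the feedback gene AXIN2 (14.5, 30.6 and 20.3) were higher, and the ligand WNT7A (35.0, 8.6 and 11.5) was lower. In the NOTCH and Hedgehog list (27 genes) the ligand DLL4 had 32.7, 89.8 and 138.2 counts and the Hedgehog-binding protein HHIP 8.0, 20.3 and 18. The ligand JAG1 had 204.8, 97.4 and 92.4 and the target HES1 75.2, 13.8 and 8.5, so members of this list lay 2-fold off on both sides. Of 37 genes of the TGF-beta and BMP list 1 was at least 2-fold higher and 1 lower, and the lower one was the ligand TGFB1 (67.3, 31.8 and 70.4 counts).

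Neural genes were among those off in both directions. RELN, the secreted guide of neuronal migration, had 1.8 counts in control cells, 72.6 in clone 1 and 67.6 in clone 2, and SLIT2, an axon repellent, had 25.1, 64.1 and 30.9. With FLRT2 they were the 3 higher genes of 20 in the axon guidance list, whose median was 0.02. RELN and FLRT2 passed the filter through clone 1 alone, so the filter itself required a large ratio of them. Of 10 receptors of gamma-aminobutyric acid and glutamate 2 were at least 2-fold higher, GABRA2 with 13.7, 44.3 and 48.0 counts and GABRB2 with 0.4, 19.7 and 23.9. GABRB2 likewise passed the filter through clone 1 alone. The homeobox gene POU3F2, a neural factor known from melanoma, had 29.0, 75.3 and 83.2. Of 18 neural crest and Schwann genes TWIST2 was higher (84.0, 249.8 and 213.9 counts), and NCAM1, ERBB3 (27.5, 12.3 and 21.4) and SOX2 (34.8, 10.6 and 51.5) were lower. Of 32 potassium channels 3 were at least 2-fold higher and 5 lower, beside 2.06% and 1.42% of all compared genes.

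Among melanoma genes, few of the lineage genes could be compared. Of 32 melanocyte lineage and pigment genes listed 13 had enough counts, and EDNRB, the endothelin receptor (6.6, 18.9 and 20.4 counts), and RAB38, of melanosome transport (11.8, 29.0 and 38.2), were at least 2-fold higher. EDNRB passed the filter through clone 1 alone, so it could enter only with a higher level there. PMEL, the melanosome matrix protein, had 48.4, 21.3 and 23.8 counts and overlaps CDK2. Of 27 melanoma drivers and tumour suppressors TERT, the telomerase reverse transcriptase, had 26.2, 1.2 and 65.9 counts and HRAS 48.5, 14.7 and 38.5, so both were lower in clone 1 and TERT was above control in clone 2. The cancer-testis antigen gene PRAME had 94.9, 201.6 and 198.7 counts. Of 22 genes of MAPK output 7 were above control, with a median of -0.13, and IL11, a cytokine, was the one at least 2-fold lower (415.8, 145.9 and 267.1 counts). The 33 immediate early genes had a median of -0.10 and none past 2-fold, with KLF2 (734.6 and 402.8 counts) and EGR1 (201.3 and 280.5) at the ends.

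Adhesion and immune surface genes lay past 2-fold in both directions. Of 29 immunoglobulin-type adhesion molecules 3 were at least 2-fold higher and 2 lower, and of 35 genes of integrins and focal adhesion 1 was higher and 2 lower. ICAM1, the ligand of leukocyte integrins, had 52.6 counts in control cells, 176.8 in clone 1 and 84.2 in clone 2, and the integrin chain ITGB2 had 22.8, 57.8 and 97.1. The integrin chains ITGA11 (19.2, 5.1 and 7.5 counts) and ITGB7 (25, 8.0 and 7.2) were lower. VCAM1 had 5.0, 16.2 and 8.4, and CNTN5, a contactin, had 7.3, 31.3 and 37.3. CD74, the invariant chain of MHC class II, had 86.7, 35.3 and 24.5 and was the single one of 19 antigen presentation genes at least 2-fold off. COL9A2, a collagen IX chain, had 17.7, 64.8 and 47.3 counts. The protease FAP, a marker of activated fibroblasts, had 1.4, 27.6 and 9.9, and the metalloproteinases ADAMTS4 (41.6, 109.7 and 159.0) and ADAM12 (33.0, 7.8 and 11.8) lay on opposite sides. Of 24 compared ADAM and ADAMTS proteases 1 was at least 2-fold higher and 3 were at least 2-fold lower.

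Noncoding transcripts next to genes were set beside those genes. Of 993 pairs of a gene with a transcript named as its antisense or divergent partner, 656 overlapped. The transcript was at least 2-fold higher in 21 pairs, and the gene was above control in 18 of them and at least 2-fold higher in 6. It was at least 2-fold lower in 12, with the gene below control in 9 and at least 2-fold lower in 1. The counts of transcripts past 2-fold are near the 2.06% and 1.42% of all compared genes, and 48.7% of all compared genes were above control. RAB17, a Rab GTPase of epithelial trafficking, had 12 counts in control cells, 84.5 in clone 1 and 114.9 in clone 2, and its divergent partner RAB17-DT 4.0, 44.2 and 60.1. FOXN3, a forkhead repressor, had 43.8, 7.1 and 2.1, and FOXN3-AS1 18.6, 5.1 and 3.1. Without a stated strand setting, reads of overlapping partners cannot be told apart. Across the 993 pairs, which share libraries and in part reads, Pearson's r between the ratios of transcript and gene was 0.35 and Spearman's rho was 0.26.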

How the data were processed

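PRO-seq was made from 9 libraries, 3 biological replicates each of control cells and of 2 PCIF1 knockout clones. The authors deposited 1 table whose values are, per the file header, group means of normalized counts across replicates, divided by gene length in kb. Each is thus a signal scaled and averaged by the authors. Per the submitters' processing notes, the tools were DESeq2, featureCounts, Bowtie 1.2.2 and cutadapt 1.14, and the builds GRCh38.p12, dm3 and hg38, without their roles. Not given in the sources used here are the strand setting, the counted feature and any use of the spike-in. The header has 6 names over rows of 5 cells; the second cell was taken as length, because for 64.4% of 57754 identifiers matched to GENCODE release 44 it is the summed length of merged exons, and for 83.1% it is within 5% of it. Reads in introns may therefore not be in the values. Unmatched were 582 identifiers. The depth of single libraries is unknown.

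Values were multiplied by length in kb, genes with a mean of control and clone 1 of at least 10 were kept, and log2 ratios used a pseudocount of 1. Start bases and windows are those of the canonical transcript in hg38 (99.3% of compared genes). The authors' summed levels were 3760730 in control and 3759168 in clone 1, which their scaling sets.

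The members, lists and rules were chosen with earlier results of these data known, and families were limited to protein-coding members after their values were seen. Named were PCIF1; of genes with at least 50 counts the 15 highest and 15 lowest protein-coding and the 5 highest and lowest others; of those with at least 1000 counts the 6 highest and lowest; in each list up to 4 members of largest ratio at least 2-fold off, or the ends; genes in runs of at least 3; and the genes nearest the floor. Not all are printed, and others are said to be chosen after their values were seen, except markers, adjoining genes and partner transcripts, which were taken from a list or by position. Just above the floor were HPGD (4.4 and 15.6 counts) and LMO3 (7.2 and 12.8), and just below it MIR4746 (11.0 and 9.0) and YWHABP2 (9.1 and 10.9). Alternatives were other floors, pseudocounts, the scale per kb and 2 rescalings. Python 3.11.15, numpy 2.4.6, pandas 2.3.3, pysam 0.24.0 and matplotlib 3.10.9 were used.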

Additional observations from a re-analysis of the deposited data

How the results depend on the processing

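No paired analysis was possible because the values are 1 mean per group, and for the same reason no replicate could be left out. The counts of genes at least 2-fold off depended on the filter: with no filter on low counts 1403 of 33127 genes were higher and 1435 lower, with a mean of at least 50 counts 98 and 58, and with at least 10 counts in both groups 206 and 133, against 354 and 243. Pseudocounts of 0.5 (370 and 259) and 5 (280 and 171), the scale per kb (357 and 357), median-of-ratios rescaling (360 and 240) and equal totals (354 and 243) stayed within 1.5 times. The share of higher genes among those 2-fold off was 59.3%, but 50.0% per kb and 49.4% with no filter. Medians over all genes and by start base moved by less than 0.1 under these alternatives. Of 404 alternative values for 53 gene ratios 390 moved little and 14 moved, all of genes near 0 in 1 group, such as MGMT; none changed sign. Of 606 for medians of lists and families 586 moved little. Medians near 0 can change sign: that of cancer-testis antigens was 0.09 at a floor of 50, that of ADAM and ADAMTS proteases 0.06 there, and that of collagens 0.22 with no filter. The depth of the libraries is unknown, so no counting error can be given.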

Other observations

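The first rows of the deposited table are not in the order of their identifiers, and their order moved with the ratios of clone 1 to control. This was noticed after the data were seen. None of the first 186 rows, 172 of which were compared genes, was above control, and their median log2 ratio was -1.0. The next 322, up to row 508, were all above control, with a median of 1.17. Of the 156 genes with a mean of at least 50 counts that were at least 2-fold off in clone 1, 149 stood in the first 1600 rows. What the order stands for is not given in the sources used here, and it was used for no result.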
